A study of Mus musculus with 12 samples.

Results

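The miR-30 family was followed in mouse quadriceps muscle from birth to adulthood, as 10 of the 1966 mature miRNAs in the deposited count table. Earlier results of these data were known, but the members were taken by name, not by their values. They are the 5p arms mmu-miR-30a-5p, mmu-miR-30b-5p, mmu-miR-30c-5p, mmu-miR-30d-5p and mmu-miR-30e-5p, and the 3p arms mmu-miR-30a-3p, mmu-miR-30c-1-3p, mmu-miR-30c-2-3p, mmu-miR-30d-3p and mmu-miR-30e-3p. All 10 passed the filter on low counts, as did 809 miRNAs in the whole table. Small RNA was sequenced from wild-type (WT) C57BL/6J quadriceps on postnatal days 1, 5, 14 and 90 (P1, P5, P14 and P90), with 3 libraries per age and 12 in all. No animal carried an engineered allele or received a treatment according to the labels. RNA came from whole muscle, so fewer cells of a type and less miRNA per cell cannot be told apart. By the methods of the study 3 mice were used per age, and the labels number the libraries within an age without naming the mouse of each, so that P-values measure the spread between these libraries.

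A miRNA is cut from a hairpin precursor, whose 5′ side gives the 5p arm and whose 3′ side gives the 3p arm. Usually 1 of these arms, the guide, is kept by an Argonaute protein and the other, the passenger, is degraded. Bases 2 to 8 of the kept arm, the seed, pair with target mRNAs, so that members with the same seed can share targets. In the miR-30 family the 5p arm is the abundant arm, and the family has been studied most in heart, kidney and fat tissue. Its hairpins lie in 3 genomic pairs, namely Mir30a with Mir30c-2, Mir30b with Mir30d and Mir30c-1 with Mir30e.

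The mature 5p arms are shown first because the shared start and the few differing bases decide which members can be told apart by reads. Sequences are from RefSeq on GRCm38.p6, 5′ to 3′, with the seed in capitals. A sequence entry was matched for 7 of the 10 members. miR-30b-5p, miR-30d-5p and miR-30d-3p are named only.
miR-30a-5p: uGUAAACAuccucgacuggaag
miR-30c-5p: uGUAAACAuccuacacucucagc
miR-30e-5p: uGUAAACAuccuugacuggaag
These 3 arms shared the seed GUAAACA and their first 12 bases. Counting from 1 at the 5′ end, miR-30a-5p differed from miR-30e-5p by C13U alone. miR-30a-5p differed from miR-30c-5p by C13A, G14C, G18C, G19U and A20C over the first 22 positions. The 3p arms carried other seeds and formed 2 sets.
miR-30a-3p: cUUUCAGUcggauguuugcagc
miR-30e-3p: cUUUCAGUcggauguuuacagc
miR-30c-1-3p: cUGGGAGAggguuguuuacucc
miR-30c-2-3p: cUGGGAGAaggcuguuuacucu
miR-30a-3p and miR-30e-3p shared the seed UUUCAGU and differed by G18A. miR-30c-2-3p and miR-30c-1-3p shared the seed UGGGAGA and differed by A9G, C12U and U22C. miR-30c-5p is given by both miR-30c hairpins, whose mature 5p sequence is identical, so its count is a sum over 2 loci, whereas the 3p arms name their hairpin.

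The hairpins of the first pair are printed because their 3p arms had the largest increases of the family between P1 and P90. The arms are in capitals, and both hairpins lie on the plus strand of chromosome 1.
Mir30a: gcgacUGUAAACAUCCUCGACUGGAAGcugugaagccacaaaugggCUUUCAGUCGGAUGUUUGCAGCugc
Mir30c-2: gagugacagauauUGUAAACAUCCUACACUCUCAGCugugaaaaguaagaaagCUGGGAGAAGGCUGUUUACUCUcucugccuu
In GRCm38.p6 Mir30a is at chr1:23272269-23272339 and Mir30c-2 at chr1:23291701-23291784, with 19361 bases between them. Mir30b at chr15:68337415-68337510 and Mir30d at chr15:68341208-68341289 lie 3697 bases apart. Mir30c-1 at chr4:120769534-120769622 and Mir30e at chr4:120772606-120772697 lie 2983 bases apart on the minus strand, inside an intron of Nfyc, which encodes a subunit of the transcription factor NF-Y. By the GENCODE annotation, Mir30c-2 overlaps an exon of the lncRNA Gm27028 and Mir30d an exon of the lncRNA Gm20732.

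The libraries held 20363495 to 33771032 miRNA counts at P1, P5 and P14 and 43776307 to 53126984 at P90. miR-1a-3p and miR-1b-5p, named here because they made up most of the P90 counts, took 24.2 to 46.3% of the counts in the libraries of the 3 young ages and 79.6 to 85.3% at P90. Levels below are normalized CPM, that is CPM after TMM scaling of the library totals, whose factors were 1.24 to 1.73 at the young ages and 0.247 to 0.384 at P90. A normalized CPM at P90 is therefore several times the plain share of the library. In P1 replicate 1 miR-1b-5p had 92692 normalized CPM beside 183646 for miR-1a-3p, and in P90 replicate 1 692831 beside 1379298. Whether these 2 rows hold some of the same reads, which the library totals would then count again, was not tested. TMM put the median log2FC of all 809 miRNAs at -0.72 for P90 versus P1. With library totals alone that median was -2.97, and with upper-quartile factors 1.18, so each P90 change below is to be read against the median on the same scale. The muscle fibre markers took 24.7 to 34.3% of the counts in young libraries and 55.9 to 58.6% at P90, and none of the 7 was at 0 in all libraries of an age. This share is mostly miR-1a-3p. At P90 the list summed to 1455640 to 2374540 normalized CPM, and miR-1a-3p alone had 1379298 to 2300641. Of the 7 markers 3 were upregulated and 3 downregulated for P90 versus P1, so the share does not measure fibre content.

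From P1 to P90, 9 of the 10 members were upregulated on the TMM scale and none was downregulated, against 25.2% of all tested miRNAs upregulated and 41.2% downregulated (P adj under 0.05, edgeR quasi-likelihood test). With library totals alone the split of the members became 4 up and 4 down, and that of all miRNAs 36 up and 647 down, while upper-quartile factors gave 10 members up and 391 and 192 of all miRNAs. The median log2FC of the members was 2.38 beside -0.72 for all miRNAs, and with library totals alone it was 0.10 beside -2.97. Every member with a value lay above the median of all miRNAs in this comparison under all 22 alternative settings tried. The changes of scaling among these settings move all miRNAs nearly alike, so they could hardly alter this and are no separate check of it. All 10 members also differed across the 4 ages, as did 72.4% of all tested miRNAs.

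**Figure D1:**
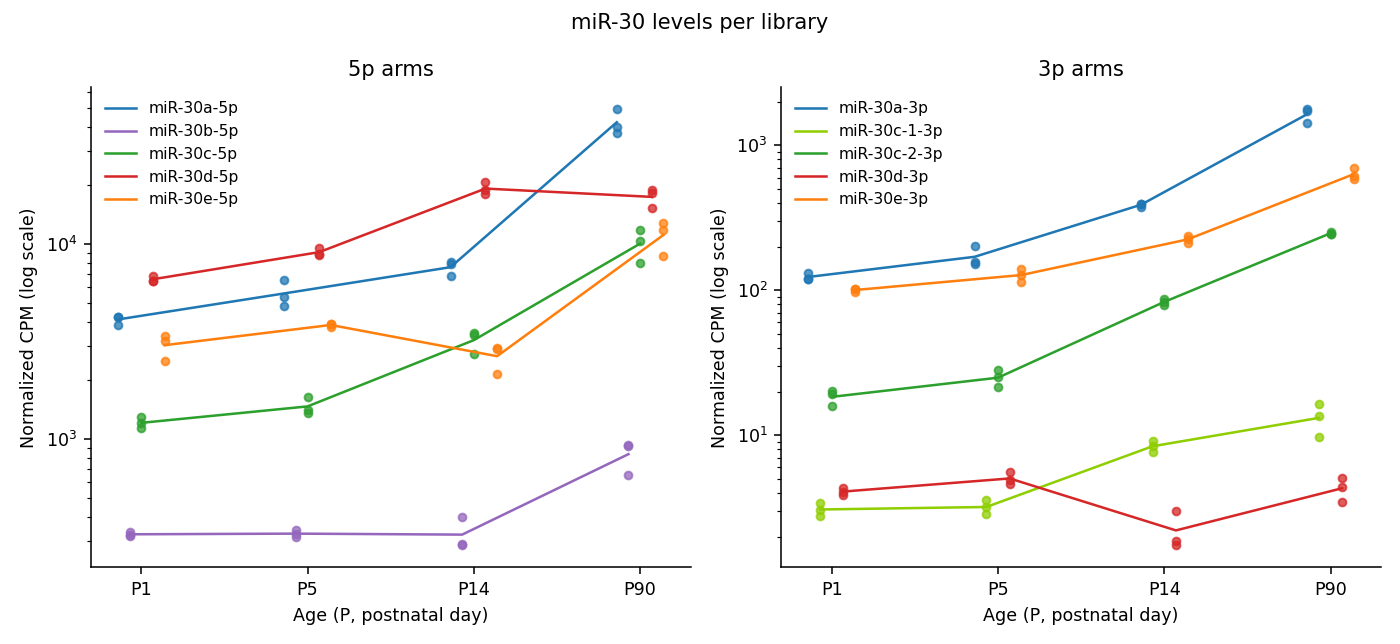
Normalized CPM (log axis) of the 5p arms (left) and 3p arms (right) at each age. Each point is 1 library and each line joins the means of 3 libraries. miR-30a-5p reached 37151 to 49252 at P90, and miR-30d-5p had 18025 to 20787 at P14 and 15331 to 18838 at P90. P90 levels rest on TMM scaling, and with library totals alone miR-30b-5p, miR-30c-1-3p, miR-30d-5p, miR-30d-3p and miR-30e-5p lay lower at P90 than at P1.

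miR-30a-5p became the most abundant member. Its normalized CPM were 4255, 3833 and 4241 at P1, 6568, 5354 and 4842 at P5, 8087, 6848 and 7919.7 at P14 and 37151, 40098 and 49252 at P90. The P90 libraries lay far above all others, and the P5 and P14 libraries did not overlap. The increase from P1 to P90 was 10.3-fold (log2FC 3.36, SE 0.16, P adj = 1.38e-11). Its sign held in all scalings, with a log2FC of 1.07 with library totals alone. By its raw share of the library, miR-30a-5p moved from rank 30 of 1966 miRNAs at P1 to rank 6 at P90.

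miR-30d-5p had another course, with its highest mean at P14. Its normalized CPM were 6902, 6435 and 6478 at P1, 8912, 9586 and 8796 at P5, 18999, 20787 and 18025 at P14 and 18838, 15331 and 18244 at P90. The P14 and P90 libraries overlapped. The rise from P5 to P14 was 2.12-fold (log2FC 1.08, SE 0.12, P adj = 2.91e-06). From P14 to P90 the log2FC was -0.14 (SE 0.12, P adj = 0.311), and its sign turned with the scaling, being 0.22 with RLE size factors, 1.43 with upper-quartile factors and -2.39 with library totals alone. Between P1 and P90 the log2FC was 1.40 (SE 0.12, P adj = 2.58e-08), and -0.86 with library totals alone. miR-30d-5p ranked 20, 13, 5 and 9 by raw share at P1, P5, P14 and P90.

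miR-30e-5p, whose sequence differs from miR-30a-5p by a single base, was the abundant member that was lower at P14. Its normalized CPM were 3386, 2519.7 and 3192 at P1, 3761, 3897 and 3894 at P5, 2882, 2157 and 2951 at P14 and 8656, 11880.1 and 12872 at P90. All P14 libraries were below all P5 libraries and overlapped the P1 libraries, and the P90 libraries were above all others. The fall from P5 to P14 was 1.45-fold (log2FC -0.53, SE 0.17, P adj = 0.0167). This call was lost with upper-quartile factors (log2FC -0.25), with library totals alone (log2FC -0.27), with the GC trend removed (log2FC -0.24, P adj = 0.202) and without P14 replicate 2 (log2FC -0.43, P adj = 0.0578). Its increase from P14 to P90 was 4.18-fold (log2FC 2.06, SE 0.17, P adj = 3.27e-08), while with library totals alone the log2FC was -0.19.

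miR-30c-5p, the sum over both miR-30c loci, was upregulated from P5 to P14 and, on the TMM scale, from P14 to P90. Its normalized CPM were 1204, 1138 and 1295 at P1, 1642, 1360.2 and 1414 at P5, 2748, 3482 and 3426 at P14 and 11808, 8015 and 10359 at P90. The P14 libraries were all above the P5 libraries, and the P90 libraries above the P14 libraries. It increased 8.30-fold between P1 and P90 (log2FC 3.05, SE 0.16, P adj = 8.19e-11), with a log2FC of 0.80 with library totals alone. From P14 to P90 the log2FC was 1.64 (SE 0.15, P adj = 1.39e-07), but with library totals alone it was -0.59 and was called downward (P adj = 0.0135).

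miR-30b-5p was the scarcest 5p arm and held its level until P14. Its normalized CPM were 319, 321 and 336 at P1, 342, 316 and 325 at P5, 285, 289 and 398 at P14 and 939, 655 and 920.4 at P90. The libraries of the 3 young ages overlapped, with a log2FC of 0.01 (P adj = 0.991) for P5 versus P1 and -0.02 (P adj = 0.946) for P14 versus P5. It was 2.58-fold higher at P90 than at P1 (log2FC 1.37, SE 0.17, P adj = 2.33e-06), but with library totals alone the log2FC was -0.91 and was called.

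The order of the 5p arms therefore differed between ages. These arms with a sequence entry are 22 or 23 bases long, and no length correction was made. At P1 the order was miR-30d-5p, miR-30a-5p, miR-30e-5p, miR-30c-5p and miR-30b-5p, with no overlap between neighbours within 3 libraries each. At P14 miR-30c-5p (3219 ± 409, SD, n = 3) and miR-30e-5p (2663 ± 440.1, SD, n = 3) overlapped. At P90 miR-30a-5p (42167 ± 6310.1, SD, n = 3) was first and miR-30d-5p (17471 ± 1877, SD, n = 3) second, followed by miR-30e-5p (11136 ± 2204, SD, n = 3) and miR-30c-5p (10061 ± 1914, SD, n = 3), which overlapped.

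Of the 3p arms, miR-30a-3p and miR-30c-2-3p increased most. miR-30a-3p had normalized CPM of 131, 119.8 and 120.4 at P1, 202, 156 and 153 at P5, 397, 374 and 397 at P14 and 1729.6, 1419 and 1779.9 at P90. miR-30c-2-3p, from the neighbouring hairpin, had 16.0, 19.1 and 20.1 at P1, 28.1, 25.1 and 21.6 at P5, 86.6, 83.5 and 79.4 at P14 and 244, 245 and 254 at P90. No libraries of different ages overlapped for either arm. From P1 to P90 miR-30a-3p rose 13.3-fold (log2FC 3.73, SE 0.16, P adj = 4.41e-12) and miR-30c-2-3p 13.5-fold (log2FC 3.75, SE 0.16, P adj = 6.21e-12). With library totals alone the log2FC was still positive, at 1.46 for miR-30a-3p and 1.48 for miR-30c-2-3p.

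miR-30e-3p had normalized CPM of 102, 102 and 97.3 at P1, 114, 128 and 141 at P5, 226, 211 and 237 at P14 and 587, 616 and 698 at P90. Unlike its 5p partner it was upregulated at P14, with all P14 libraries above all P5 libraries (log2FC 0.82, SE 0.13, P adj = 0.000125). From P1 to P90 it rose 6.31-fold (log2FC 2.66, SE 0.14, P adj = 6.44e-11), and with library totals alone the log2FC was 0.38 (P adj = 0.0513).

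The remaining 3p arms were scarce, with counts of 111 to 330 per library for miR-30c-1-3p and 61 to 247 for miR-30d-3p. miR-30c-1-3p had normalized CPM of 3.05, 2.77 and 3.41 at P1, 2.84, 3.55 and 3.21 at P5, 9.09, 7.71 and 8.39 at P14 and 9.69, 16.3 and 13.5 at P90. The P1 and P5 libraries overlapped, and the P14 and P90 libraries were higher than both. Its log2FC for P14 versus P5 was 1.39 (SE 0.22, P adj = 0.000112) and for P90 versus P1 2.10 (SE 0.23, P adj = 5.62e-07), although the latter became -0.17 with library totals alone.

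miR-30d-3p was the member that did not pass the test between P1 and P90 on the TMM scale. Its normalized CPM were 3.87, 4.06 and 4.33 at P1, 4.61, 4.91 and 5.58 at P5, 1.73, 1.87 and 3.01 at P14 and 4.40, 3.45 and 5.08 at P90. All P14 libraries were below all others, and the P90 libraries overlapped those of P1 and P5. It fell 2.29-fold from P5 to P14 (log2FC -1.20, SE 0.26, P adj = 0.00166) and rose 1.95-fold from P14 to P90 (log2FC 0.97, SE 0.27, P adj = 0.00592). The latter log2FC was -1.27 with library totals alone. For P90 versus P1 the log2FC was 0.07 (SE 0.26, P adj = 0.829). This value turned with the scaling, being -2.21 with library totals alone (P adj = 1.75e-06) and 1.95 with upper-quartile factors (P adj = 3.14e-06).

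The steps between neighbouring ages were compared next. From P1 to P5, only miR-30d-5p was upregulated (log2FC 0.46, SE 0.12, P adj = 0.0364), which is 1 of 10 members beside 2.72% of all tested miRNAs, and none was downregulated beside 1.73%. This call was lost when any 1 of the 6 P1 or P5 libraries was left out, with P adj between 0.0737 and 0.167, and also without P14 replicate 1 (P adj = 0.0653) or P14 replicate 3 (P adj = 0.0531). It was lost likewise with library totals alone (P adj = 0.654), with totals that leave out miR-1a-3p and miR-1b-5p (P adj = 0.0844) and without a filter on low counts (P adj = 0.0753). DESeq2 called 5 members upregulated and RLE size factors 2, whereas library totals alone turned the split of all miRNAs from 22 up and 14 down into 3 up and 37 down. The log2FC of the other 9 members ranged from 0.01 to 0.46.

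From P5 to P14, 7 members were upregulated and 2 downregulated, beside 18.0% and 26.3% of all tested miRNAs. The median log2FC of the members was 0.95 beside -0.07 for all. Of all miRNAs, 146 were up and 213 down on the TMM scale, 207 and 165 with upper-quartile factors and 183 and 160 with library totals alone, and the members were 7 up and 1 down under both alternatives. The upregulated members were miR-30a-5p, miR-30c-5p, miR-30d-5p and all 3p arms other than miR-30d-3p, and their log2FC ran from 0.45 for miR-30a-5p to 1.74 for miR-30c-2-3p. The call for miR-30a-5p (P adj = 0.0185) was lost with DESeq2 (P adj = 0.0538), without a filter on low counts (P adj = 0.0938), and without P5 replicate 2, P5 replicate 3, P14 replicate 1 or P14 replicate 3, with P adj between 0.0640 and 0.115. The libraries also differed in how counts ran with the GC content of the mature miRNA, by 0.378 to 0.562 log2 units per 10 GC points at P14, -0.595 to -0.382 at P90 and -0.0113 to 0.0759 at P1 and P5. With this trend removed, 6 of the 7 members with a sequence remained upregulated at P14 and none was downregulated.

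From P14 to P90, 9 members were upregulated and none downregulated on the TMM scale, beside 22.4% and 36.7% of all tested miRNAs, but 0 were upregulated and 7 downregulated with library totals alone. With totals that leave out miR-1a-3p and miR-1b-5p the members were 8 up and 1 down. All miRNAs were 181 up and 297 down on the TMM scale, 18 and 628 with library totals alone and 382 and 159 with upper-quartile factors. The member that did not pass was miR-30d-5p. The median log2FC of the members was 1.54 beside -0.55 for all miRNAs on the TMM scale, and -0.71 beside -2.77 with library totals alone. The largest log2FC was that of miR-30a-5p, 2.47 (SE 0.15, P adj = 6.23e-10), and the smallest among the upregulated that of miR-30c-1-3p, 0.65 (SE 0.22, P adj = 0.0174). The latter was lost without P14 replicate 2 (P adj = 0.0519), without P90 replicate 2 (P adj = 0.0781), and with totals that leave out miR-1a-3p and miR-1b-5p (P adj = 0.163).

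**Figure D2:**
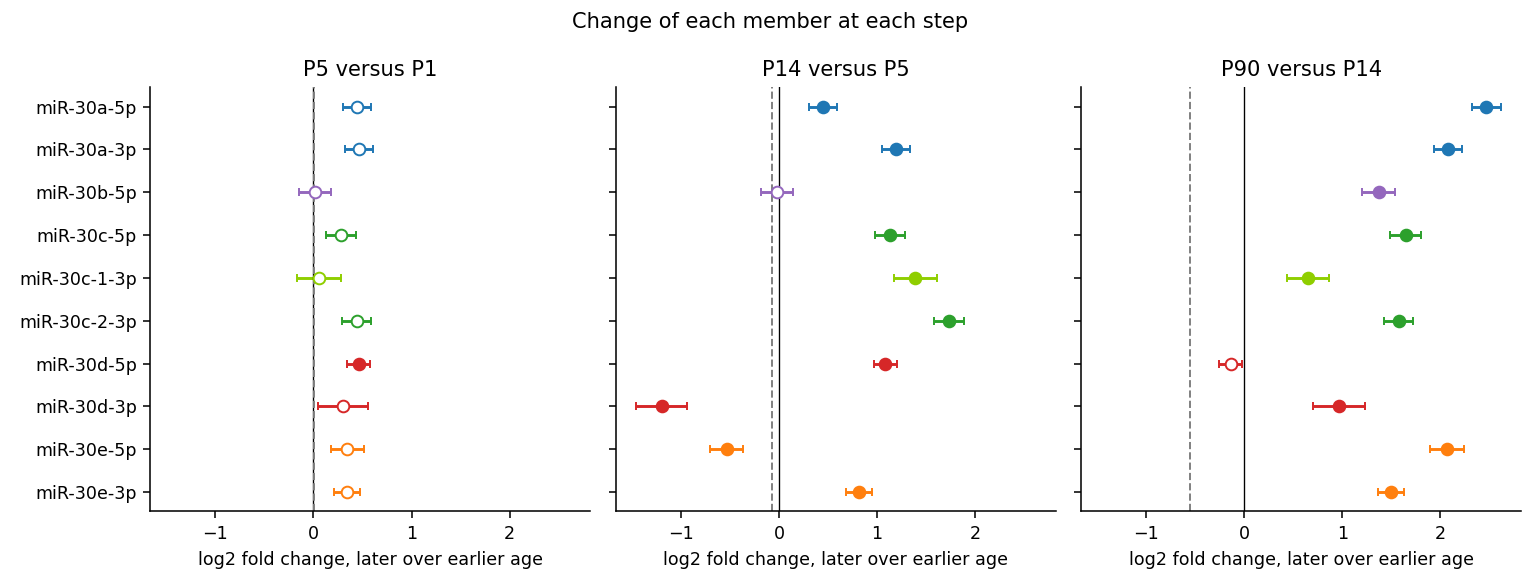
log2 fold change (later over earlier age, TMM scale) of each member at the 3 steps. Points are edgeR estimates with bars of 1 SE, filled where P adj was under 0.05, and the dashed line is the median of all tested miRNAs. miR-30c-2-3p has the highest estimate for P14 versus P5 (1.74) and miR-30a-5p that for P90 versus P14 (2.47). With library totals alone the P90 versus P14 estimates of all members other than miR-30a-5p were negative.

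The dependence on scale is shown for P90 versus P1. Moving from library totals to totals without miR-1a-3p and miR-1b-5p, TMM, RLE and upper-quartile factors shifted all members and the median of all miRNAs together. The members' median was 0.10, 1.92, 2.38, 2.72 and 4.26 on these scales, beside -2.97, -1.17, -0.72, -0.37 and 1.18 for all tested miRNAs. miR-30c-2-3p and miR-30a-3p had the highest log2FC of the family on each of these scales. Because a change of scaling moves all miRNAs nearly alike, the order of the members and their place beside the median could hardly change.

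**Figure D3:**
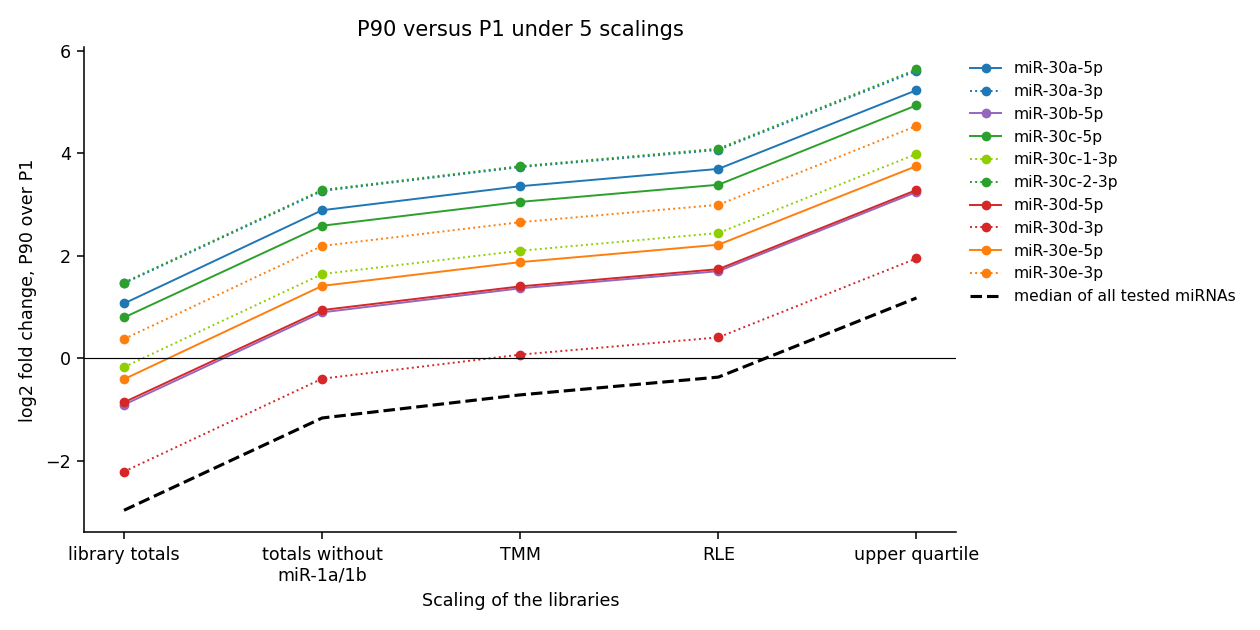
log2 fold change, P90 over P1, of each member (solid lines for 5p arms, dotted for 3p arms) under 5 scalings, with the median of all tested miRNAs as the black dashed line. The lines of miR-30a-3p and miR-30c-2-3p coincide at the top. Every member lies above the dashed line in each scaling, while 5 members are below 0 with library totals alone. A change of scaling moves all lines nearly alike, so their place beside the dashed line could hardly differ.

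The composition of the family does not depend on the scale, since it uses counts within a library. The 5p arms made up 96.8 to 98.5% of the family's counts in every library. miR-30d-5p held 42.6% ± 1.70 of them at P1, 44.1% ± 2.46 at P5, then 57.0% ± 3.45 at P14 and lastly 20.8% ± 2.37 at P90 (SD, n = 3). miR-30a-5p held 26.5% ± 0.398 at P1, 27.0% ± 3.06 at P5, then 22.6% ± 2.22 at P14 and lastly 49.95% ± 3.06 at P90 (SD, n = 3). These members thus exchanged first place between P14 and P90, with no overlap between the libraries of these ages. miR-30e-5p took 19.4% at P1, 18.7% at P5, then 7.89% at P14 and lastly 13.2% at P90, and miR-30c-5p 7.81%, 7.12%, 9.52% and 11.99%. The whole family took 2.44% ± 0.0497 of the library at P1, 2.64% ± 0.0983 at P5, then 5.23% ± 0.616 at P14 and lastly 2.73% ± 0.373 at P90 (SD, n = 3). With miR-1a-3p and miR-1b-5p left out of the total, the same counts were 3.93%, 4.80%, 7.56% and 15.4%.

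**Figure D4:**
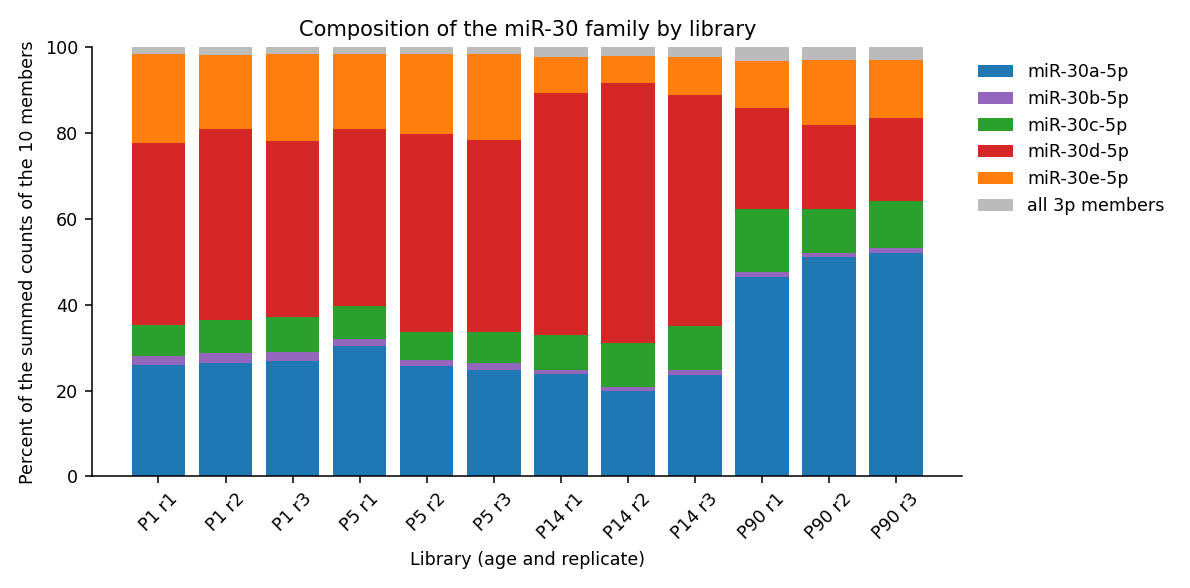
Percent of the summed counts of the 10 members held by each 5p arm and by all 3p arms together, in each of the 12 libraries (r, replicate). miR-30d-5p is the largest part in all 9 young libraries, with 53.9 to 60.7% at P14, and miR-30a-5p in the 3 P90 libraries, with 46.5 to 52.2%.

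The arms of each hairpin were then compared as the log2 ratio of their counts in the same library, which needs no scaling. The GC trend does not cancel in such a ratio, and neither the ratios nor the shares above were corrected for it. The GC content was 45.5% for miR-30a-5p and 50% for miR-30a-3p. It was 40.9% for miR-30e-5p and 45.5% for miR-30e-3p, and 43.5% for miR-30c-5p and 50% for miR-30c-2-3p. The part of the GC trend in the ratios was not tested. The 10 ratios tested were chosen with earlier results of these data known. An exact permutation test ran over the 15400 ways to divide the libraries into 4 ages, with P adj over the 10 ratios. By this test all 5 arm ratios differed between ages. In 4 of the 5 the 5p arm had its smallest mean excess at P14. The ratio of miR-30a-5p to miR-30a-3p was 32.0 to 35.2 at P1, 31.6 to 34.3 at P5, then 18.3 to 20.4 at P14 and lastly 21.5 to 28.3 at P90 (exact permutation P adj = 0.00108). The P1 and P5 libraries lay above all later ones.

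The ratio of miR-30e-5p to miR-30e-3p was 24.8 to 33.1 at P1, 27.7 to 33.0 at P5, then 10.2 to 12.8 at P14 and lastly 14.7 to 19.3 at P90 (exact permutation P adj = 0.00108). For miR-30b the ratio of the 5p arm to miR-30b-3p, which is not counted among the members, had a mean log2 of 6.44 at P1, 6.39 at P5, then 5.34 at P14 and lastly 5.89 at P90 (exact permutation P adj = 0.0165). It no longer passed without P14 replicate 2 (P adj = 0.0566). miR-30c-5p over the sum of miR-30c-1-3p and miR-30c-2-3p had a mean log2 of 5.82, 5.71, 5.13 and 5.25 at the 4 ages in turn (exact permutation P adj = 0.0165). miR-30b, miR-30c and miR-30e, like miR-30a, thus had less 5p excess at P14 and P90 than at P1 and P5 by their means.

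miR-30d went the other way. Its 5p arm exceeded its 3p arm 1486 to 1773 times at P1, 1569.6 to 1941 times at P5, then 5928 to 10954 times at P14 and lastly 3532.5 to 4381 times at P90. No P14 library overlapped another age, and the P90 libraries lay between those of P14 and those of P1 and P5. The mean log2 ratio was 10.65 ± 0.13 at P1 and 13.12 ± 0.50 at P14 (SD, n = 3, exact permutation P adj = 0.00108). In this hairpin the 5p arm rose and the 3p arm fell between P5 and P14. miR-30d-3p is counted from few reads, and counting error is part of the spread of this ratio.

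**Figure D5:**
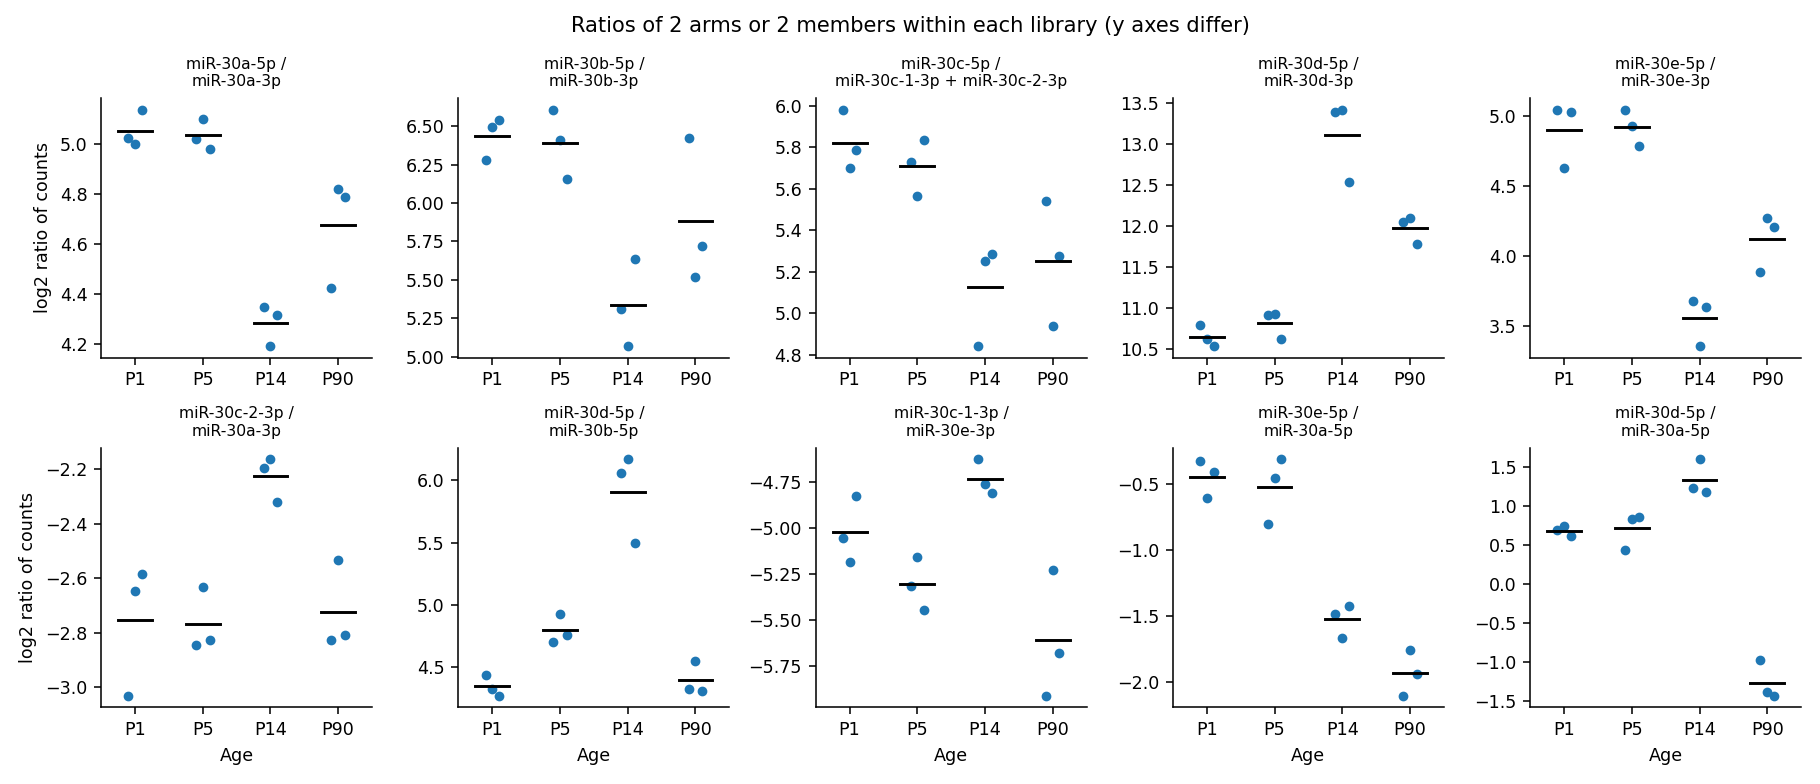
log2 ratio of counts for 5 pairs of arms (top row) and 5 pairs of members (bottom row) in each library, with the mean of 3 libraries as a bar and a separate y axis per panel. The arm ratios of miR-30a, miR-30b, miR-30c and miR-30e have their lowest mean at P14, and that of miR-30d its highest (13.12).

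Members of a genomic pair were compared in the same way. For Mir30a and Mir30c-2, miR-30c-2-3p over miR-30a-3p had a mean log2 ratio of -2.75, -2.77, -2.23 and -2.72 at P1, P5, P14 and P90 (exact permutation P adj = 0.0177). All P14 libraries, at ratios of 0.200 to 0.223, exceeded all others, and P1 and P90 overlapped. The call was lost without P14 replicate 1 (P adj = 0.0534) or P14 replicate 2 (P adj = 0.0625).

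For Mir30b and Mir30d, miR-30d-5p exceeded miR-30b-5p 19.3 to 21.7 times at P1, 26.0 to 30.3 times at P5, then 45.2 to 72.0 times at P14 and lastly 19.8 to 23.4 times at P90 (exact permutation P adj = 0.00108). P1 and P90 overlapped, and P5 and P14 overlapped no other age. For Mir30c-1 and Mir30e, miR-30c-1-3p over miR-30e-3p had a mean log2 ratio of -5.02, -5.31, -4.74 and -5.61 at the 4 ages in turn (exact permutation P adj = 0.00622). The GC content was 54.5% for miR-30c-1-3p and 45.5% for miR-30e-3p. The part of the GC trend, upward at P14 and downward at P90, in this ratio was not tested. With the order of division used here, the ratio of each of the 3 pairs had its highest mean at P14. This order was a choice, and the reverse order would give the lowest mean there.

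Ratios between members of different loci were taken as well. miR-30d-5p over miR-30a-5p was 1.53 to 1.68 at P1, 1.36 to 1.82 at P5, then 2.28 to 3.04 at P14 and lastly 0.370 to 0.507 at P90 (exact permutation P adj = 0.00108). It was above 1 in all young libraries and below 1 in all P90 libraries. miR-30e-5p over miR-30a-5p was 0.657 to 0.796 at P1, 0.573 to 0.804 at P5, then 0.315 to 0.373 at P14 and lastly 0.233 to 0.296 at P90 (exact permutation P adj = 0.00108). Its libraries at P14 and P90 lay below all earlier ones. An exact permutation test of only 2 ages, with 3 libraries each, cannot go below P = 0.10, so no pairwise P is given for the ratios.

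Another miRNA of the table with the seed GUAAACA was miR-384-5p, which is encoded on chromosome X and is shown for the shared seed.
miR-384-5p: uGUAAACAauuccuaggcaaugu
It was scarce, with normalized CPM of 2.89, 4.43 and 5.26 at P1, 2.33, 2.66 and 3.71 at P5, 0.826, 1.95 and 1.22 at P14 and 0.833, 2.17 and 2.50 at P90. The P1 libraries lay above those of P14 and P90. Its log2FC for P90 versus P1 was -1.20 (SE 0.42, P adj = 0.0195), and this call was lost with RLE size factors (P adj = 0.0850), with DESeq2 (P adj = 0.0812) and without P1 replicate 3, P5 replicate 2 or P90 replicate 1 (P adj between 0.0697 and 0.114). With upper-quartile factors the log2FC was 0.68. The seed-sharing 5p members had positive log2FC in the same comparison on the TMM scale.

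miR-30f, annotated on the strand opposite Mir30e, cannot be separated from miR-30e-3p in these counts. Its count was 1.002 to 1.015 times that of miR-30e-3p in all 12 libraries, and the mature sequences lie over each other on opposite strands. Whether strand was used in counting is not given in the sources used here, so the strand of origin of these reads cannot be told apart. Other rows with different names also had equal values. For example, miR-24-3p and miR-3074-5p both had 7454.6 normalized CPM in P1 replicate 1 and 7702.3 in P90 replicate 1. Counting of the same reads under 2 names was not tested.

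The miRNAs with the most similar course were named among 198 candidates, as a description without P. Pearson's r was taken over the 12 libraries with the mean course of the 5p or of the 3p members. For the 5p members they were miR-22-3p (r = 0.987), miR-26a-5p (r = 0.987) and miR-22-5p (r = 0.984). For the 3p members they were miR-22-5p (r = 0.999), miR-22-3p (r = 0.998) and miR-28a-5p (r = 0.989). Single members did not all follow these means. miR-30d-3p had r of -0.38 to -0.085 with the other 3p members, which had 0.93 to 0.99 among themselves. Among the 5p members r ran from 0.34 (miR-30d-5p with miR-30e-5p) to 0.96 (miR-30a-5p with miR-30c-5p). All points share the libraries and their TMM factors. With library totals alone, 0 of the 3 named miRNAs stayed among the top 3 for either arm.

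Markers of other cell types also moved between the ages. For P90 versus P1 all 6 endothelium and smooth muscle markers were upregulated on the TMM scale, with a summed level of 20664 to 24253 normalized CPM at P1 and 67103 to 86760 at P90, while their plain share of the library went from 3.24 to 3.62% at P1 to 2.14 to 2.89% at P90. All 5 connective tissue markers were downregulated, from 11304 to 13711 normalized CPM at P1 to 1884 to 2687 at P90. Of the 7 muscle fibre markers 3 were upregulated and 3 downregulated, of the 7 blood cell markers 2 and 2, and of the 7 epithelium markers 0 and 3. No marker was at 0 in all libraries of an age. The part of these cell types in the miR-30 levels was not tested.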

How the data were processed

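Libraries came from 200 ng of total quadriceps RNA by the NEXTflex small RNA protocol. Per the study's methods and processing notes, the authors trimmed reads with cutadapt 1.18, kept 10 to 35 nt, aligned them to GRCm38 with Bowtie2 2.4.1 and counted them on miRBase release 22 with featureCounts 2.0.1. The deposited values are these raw counts per mature miRNA, not normalized, and the authors tested them with DESeq2 1.30.1. Strand, overlap and multimapping options are not given in the sources used here. Bowtie2 can place reads of near-identical arms (miR-30a-5p and miR-30e-5p) on either gene, and the counts of such arms are uncertain to that extent.

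Counts were analysed with edgeR 4.0.16 in R 4.3.3: filterByExpr, TMM factors, 1 quasi-likelihood fit with a mean per age over 12 libraries, and Benjamini-Hochberg adjustment (P adj) over 809 miRNAs. A call is P adj under 0.05. The SE of a log2FC is its size over the square root of F. Ratios used log2 of counts plus 1 and an exact permutation test, with the sum of squares between ages as its statistic, adjusted over 10 ratios. The fit was tested on simulated data. Library totals (depth) ran from 20363495 to 53126984, and SDs over 3 libraries hold both counting and library error. No replicate pair within an age was a repeat count of the same library. Their chi-square per degree of freedom was 155 to 1060, far above counting noise alone. Whether libraries came from the same mouse cannot be told from this.

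Alternatives were RLE, upper-quartile and total scaling, totals without miR-1a-3p and miR-1b-5p, no filter, DESeq2 1.42.0, a replicate block, removal of the GC trend, fits on 2 ages, pseudocounts of 0.5 and 5, and leaving out each library. Named were all members, miR-30b-3p, miRNAs with the seed of the 5p arms, the 3 miRNAs of at least 100 mean normalized CPM most like either arm class, and miR-1a-3p and miR-1b-5p; miR-30f was added after its values were seen. Members, marker lists and tests were chosen with earlier results of these data known. Sequences and positions are from RefSeq on GRCm38.p6. Gene names at the hairpins and their exon or intron placement are from GENCODE mouse release 39, of which no coordinates are printed.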

Additional observations from a re-analysis of the deposited data

How the results depend on the processing

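With library totals alone the log2FC changed sign in 23 values. For P5 versus P1 these were -0.29 for miR-30b-5p, -0.021 for miR-30c-5p, -0.24 for miR-30c-1-3p, -0.0022 for miR-30d-3p and -0.23 for miR-30b-3p, for P14 versus P5 0.24 for miR-30b-5p, for P90 versus P14 -0.17 for miR-30a-3p, -0.86 for miR-30b-5p, -0.59 for miR-30c-5p, -1.59 for miR-30c-1-3p, -0.67 for miR-30c-2-3p, -1.27 for miR-30d-3p, -0.19 for miR-30e-5p, -0.75 for miR-30e-3p, -1.44 for miR-30b-3p, -0.76 for miR-30f and -1.87 for miR-384-5p, and for P90 versus P1 -0.91 for miR-30b-5p, -0.17 for miR-30c-1-3p, -0.86 for miR-30d-5p, -2.21 for miR-30d-3p, -0.41 for miR-30e-5p and -0.38 for miR-30b-3p. Members called on that scale were 0 up for P5 versus P1, 1 down for P14 versus P5, 0 up and 7 down for P90 versus P14, and 4 up and 4 down for P90 versus P1. With totals without miR-1a-3p and miR-1b-5p the values were -0.11 for miR-30b-5p, -0.066 for miR-30c-1-3p and -0.052 for miR-30b-3p (P5 versus P1, 0 members up), -0.40 for miR-30d-3p (P90 versus P1), 1 member was down for P90 versus P14, and the share of the members in the library was 3.93, 4.80, 7.56 and 15.4% at the 4 ages. Upper-quartile factors gave 0.26 for miR-30b-5p (P14 versus P5, 1 member down), 1.43 for miR-30d-5p (P90 versus P14) and 0.68 for miR-384-5p (P90 versus P1). RLE gave 2 members up for P5 versus P1 and 0.22 for miR-30d-5p for P90 versus P14. DESeq2 gave 5 members up for P5 versus P1 and 0.21 for miR-30d-5p for P90 versus P14. With no filter, miR-30b-5p was -0.011 and 0 members were up for P5 versus P1. With only the 2 ages in the fit, miR-30b-5p was -0.017 for P5 versus P1 and 0.068 for P14 versus P5, and miR-30d-5p 0.16 for P90 versus P14. With the GC trend removed, 0 of the 7 members with a sequence were down for P14 versus P5 and miR-384-5p was -0.86 for P90 versus P14. miR-30d-3p, called down on the TMM scale, has no sequence entry and was not in that fit. The cause of these shifts was not tested.

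No pairing of the samples by replicate number was clear: 18 correlations of same-numbered deviations ran from -0.35 to 0.277, with 7 over 0.1. Each deviation is from a mean of only 3 libraries, so this cannot exclude a pairing. With the replicate block, 0 members were up for P5 versus P1 (miR-30d-5p at a log2FC of 0.46, P adj = 0.0642) and no other count of members changed. With the replicate block and the GC trend removed together, 0 of the 7 members with a sequence were down for P14 versus P5, miR-30d-3p again not being in the fit. There miR-384-5p was -0.87 for P90 versus P14.

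Leaving out each library in turn gave 0 to 2 members up for P5 versus P1 and 1 to 2 down for P14 versus P5. The log2FC for P5 versus P1 ran from -0.026 to 0.039 for miR-30b-5p, -0.033 to 0.13 for miR-30c-1-3p, -0.061 to 0.14 for miR-30b-3p, 0.32 to 0.53 for miR-30a-3p and 0.42 to 0.48 for miR-30d-5p. For P14 versus P5 it ran from -0.23 to 0.042 for miR-30b-5p, for P90 versus P14 from -0.19 to 0.085 for miR-30d-5p, and for P90 versus P1 from -0.043 to 0.30 for miR-30d-3p. The difference of log2 ratios, P90 minus P1, ran from -0.11 to 0.11 for miR-30c-2-3p over miR-30a-3p, -0.026 to 0.098 for miR-30d-5p over miR-30b-5p and -0.82 to -0.37 for miR-30b-5p over miR-30b-3p. All other differences of ratios kept their sign and call, as they did with pseudocounts of 0.5 and 5. Depth limits miR-30d-3p, miR-30c-1-3p and miR-384-5p, with 14 to 330 counts per library.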
